A study of Mus musculus with 46 samples.

Results

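A set of 36 genes of macrophages, microglia and class II antigen presentation was followed in mouse heart and striatum, out of 57010 genes counted in every library. The genes were taken by symbol and fall into 9 roles. They cover the complement C1q subunits, the class II genes, receptors for cytokines and chemokines, general macrophage genes, lysosomal and killing genes, receptors that signal through immunoreceptor motifs, resident heart macrophage genes, secreted products of alternative activation, and microglial genes. The genes that label the set are Cx3cr1, C1qc and H2-Eb1.

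The mice were adult. Mutant mice were HrDR5/DR5, homozygous for a deletion of 1 nucleotide at the hairless gene Hr, and the others were wild-type (WT). In each genotype, PTU+TH mice were fed propylthiouracil (PTU), which blocks thyroid hormone synthesis, in a low-iodine diet for 15 days and then received thyroid hormone (TH) for 24 hours. PTU mice had the PTU diet alone and are labelled hypothyroid, and untreated mice are labelled euthyroid. The labels do not say whether hypothyroidism was checked in each mouse, so PTU here names the diet. The label of the heart library mutant PTU+TH replicate 1 names the 15 days but not the 24 hours, and it was kept in its group. Heart had 4 libraries in each group except mutant PTU and mutant untreated, with 3 each, and striatum had 4 in each of its 6 groups. The labels do not say whether libraries of a group came from separate mice, so p-values measure the spread between these libraries. Whole tissue was sequenced, so fewer cells of a type and less RNA per cell cannot be told apart in any result here.

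Macrophages live in the heart between the muscle cells, where they clear debris and present antigen, and microglia are the macrophages of the brain. Class II molecules are pairs of an alpha and a beta chain that show peptides to helper T cells. The invariant chain Cd74 guides them to the endosome, where the protease cathepsin S (Ctss) trims that chain away. C1q, built from the C1qa, C1qb and C1qc chains, starts the classical complement pathway and is made largely by tissue macrophages. Csf1r is the receptor that macrophages and microglia need to survive. In heart, long-lived resident macrophages are known to carry Timd4, Lyve1 and Folr2, whereas cells recruited from blood monocytes carry Ccr2.

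The start regions of 5 of these genes are shown because the class II, C1q and Cx3cr1 genes are those whose values are followed most closely below. They come from RefSeq on GRCm38.p6, with 250 bases before and 50 bases after the start, and 27 of the 36 genes matched an entry. Capitals mark CCAAT, the core of the Y box of class II promoters, GAGGAA, a core of sites for the myeloid factor PU.1, and AGGTCA, the core bound by nuclear hormone receptors, each on either strand. The promoters are H2-Aa at chr17:34287774-34288073 (minus strand), H2-Eb1 at chr17:34305617-34305916 (plus strand), C1qb at chr4:136886151-136886450 (minus strand), C1qc at chr4:136892865-136893164 (minus strand) and Cx3cr1 at chr9:120068247-120068546 (minus strand).
H2-Aa: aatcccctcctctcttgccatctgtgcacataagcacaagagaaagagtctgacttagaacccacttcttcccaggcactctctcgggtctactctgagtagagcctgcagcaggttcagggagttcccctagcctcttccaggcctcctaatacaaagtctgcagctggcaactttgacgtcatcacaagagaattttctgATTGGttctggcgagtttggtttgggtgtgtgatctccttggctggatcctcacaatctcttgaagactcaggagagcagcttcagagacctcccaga
H2-Eb1: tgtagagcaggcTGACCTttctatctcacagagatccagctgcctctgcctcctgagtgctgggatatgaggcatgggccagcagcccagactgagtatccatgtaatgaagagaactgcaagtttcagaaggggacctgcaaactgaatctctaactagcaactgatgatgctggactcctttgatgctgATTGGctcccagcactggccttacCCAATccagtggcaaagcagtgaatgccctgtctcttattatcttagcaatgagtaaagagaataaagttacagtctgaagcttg
C1qb: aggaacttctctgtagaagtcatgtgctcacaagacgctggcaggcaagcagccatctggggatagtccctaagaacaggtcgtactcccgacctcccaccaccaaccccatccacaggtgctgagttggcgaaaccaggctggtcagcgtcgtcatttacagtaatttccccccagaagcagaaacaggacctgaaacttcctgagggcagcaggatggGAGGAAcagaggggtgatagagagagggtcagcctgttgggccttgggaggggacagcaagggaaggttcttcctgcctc
C1qc: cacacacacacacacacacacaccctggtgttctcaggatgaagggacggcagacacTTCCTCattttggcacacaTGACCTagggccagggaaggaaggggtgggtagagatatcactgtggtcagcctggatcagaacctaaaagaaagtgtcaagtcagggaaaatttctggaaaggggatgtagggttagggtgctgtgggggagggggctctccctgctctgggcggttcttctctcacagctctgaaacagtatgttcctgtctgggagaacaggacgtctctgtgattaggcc
Cx3cr1: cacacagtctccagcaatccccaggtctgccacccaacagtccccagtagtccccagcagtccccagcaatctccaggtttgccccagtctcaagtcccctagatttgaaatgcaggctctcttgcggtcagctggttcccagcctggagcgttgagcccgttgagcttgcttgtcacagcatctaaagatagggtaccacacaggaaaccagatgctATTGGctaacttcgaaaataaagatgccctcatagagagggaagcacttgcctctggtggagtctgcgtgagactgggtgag
CCAAT was found in 13 of the 27 genes and in 37.4% of all 32851 promoters of this length. GAGGAA was found in 16 of the 27, against 28.3% of all promoters, and AGGTCA in 8 of the 27, against 16.3%. The direct repeat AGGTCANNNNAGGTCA, with a spacing of 4, was found in 0 of the 27 and in 0.0152% of all promoters, which says only that these letters are not in these windows. The motifs do not overlap one another in the 5 promoters shown.

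Exons of Csf1r, Cx3cr1, Itgam and Folr2 overlap another gene by 50 bases or more, the strand setting of the counting is not given in the sources used here, and counts of Lyz2, the Fcgr genes and the H2 genes may be split with near copies, so these values are less certain. Gene counts came to 3.27 to 19.53 M per heart library and 9.469 to 13.66 M per striatum library. The heart library mutant untreated replicate 2 stood apart. It had the lowest total, with the next at 8.235 M, and 31.3% of its reads fell on no gene, against 3.4% to 8.16% in the other heart libraries. Of the 36 genes, 13 were higher in it than in all other 21 heart libraries and 2, Mrc1 and Lyve1, were lower. Cx3cr1 stood at 61.4 CPM there, from 157 counts, against 0.927 to 5.54 CPM in the other heart libraries. The part of this library in the mutant results was not tested beyond giving log2 changes and calls with and without it. Group means and sums include it. Within the WT PTU hearts replicate 1 also differed from the other 3. Its summed cardiomyocyte markers came to 18800 CPM, against 40900 to 43100 CPM in the others, and its summed blood vessel endothelium markers to 397 CPM, against 655 to 719 CPM. The cardiomyocyte sum includes Myh7, at 7457 CPM in replicate 1 and 21949 to 24788 CPM in the others. A low sum is thus not a measure of cell content alone. Hr, which the deletion does not remove, averaged 16.2 ± 3.15 CPM in mutant PTU+TH, 2.51 ± 1.02 in mutant PTU and 9.1 ± 8.5 in mutant untreated hearts. In WT hearts Hr averaged 75.7 ± 5.66 CPM with PTU+TH, 2.19 ± 1.03 with PTU and 15.9 ± 0.426 untreated (SD).

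C1qc was well above 0 in both tissues, Cx3cr1 was high in striatum and low in heart, and H2-Eb1 was well above 0 in heart and near the low end of detection in striatum. CPM, counts scaled to library size after TMM normalization, was computed in each tissue alone, so levels across tissues are a description with no test. Cx3cr1, the fractalkine receptor of microglia, had a median of 2.1 CPM over the 22 heart libraries and 65.4 CPM over the 24 striatum libraries. The microglial purinergic receptor P2ry12 had medians of 1.68 CPM in heart and 52.8 CPM in striatum. Siglech, a sialic acid binding lectin of microglia, had medians of 0.194 CPM in heart and 21.5 CPM in striatum. The microglial genes thus stood high in striatum, where their ranges did not reach those of heart except through the Cx3cr1 value of mutant untreated replicate 2.

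Class II and resident macrophage genes had the opposite profile. Cd74 had medians of 48.7 CPM in heart and 1.7 CPM in striatum, and H2-Eb1 medians of 13.5 CPM in heart and 0.436 CPM in striatum. The mannose receptor Mrc1 stood at 24.3 CPM in heart and 2.38 CPM in striatum, and the hyaluronan receptor Lyve1 at 18.6 CPM in heart and 0.453 CPM in striatum. Timd4, a receptor for phosphatidylserine on resident macrophages, had a median of 1.65 CPM in heart and 1 count in all over the 24 striatum libraries. Csf1r was high in both tissues, with medians of 15.7 CPM in heart and 78.0 CPM in striatum. Per kilobase of exon, the highest mean levels in heart were those of Lyz2 at 57.7, Cd74 at 40.3 and C1qb at 17.6 CPM per kb. In striatum they were those of Ctss at 50.5, C1qb at 29.4 and C1qa at 28.7 CPM per kb.

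**Figure D1:**
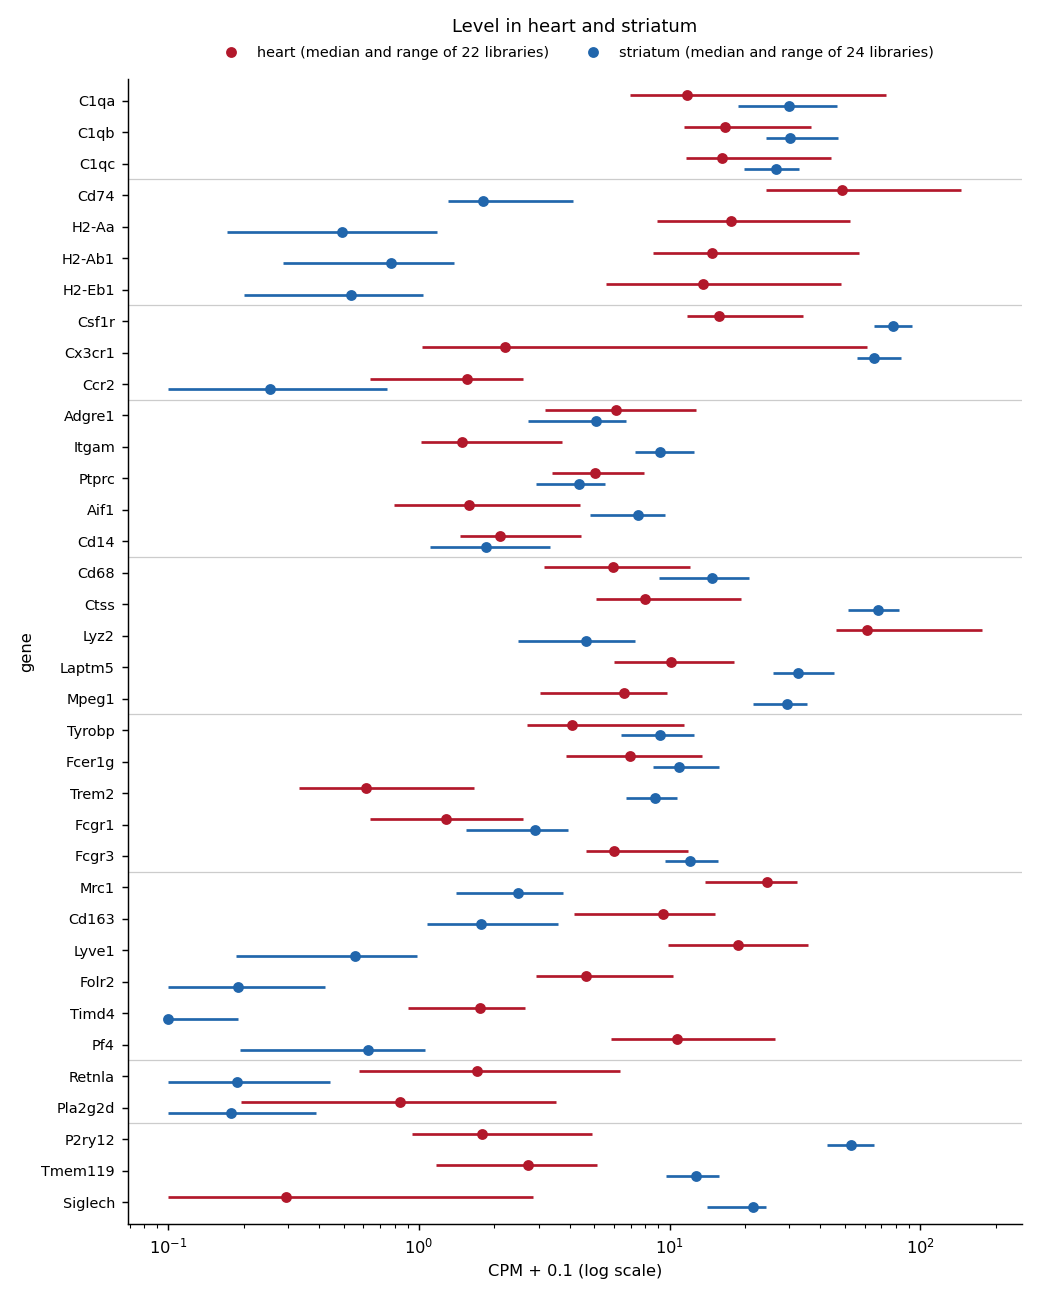
Level of each of the 36 genes in heart (upper mark of each pair) and striatum (lower mark), with CPM plus a small constant on a log axis; points are medians and lines run over all libraries of a tissue. Microglial genes such as P2ry12 (1.68 against 52.8 CPM) lie to the right in striatum, and class II genes such as Cd74 (48.7 against 1.7 CPM) lie to the right in heart.

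In heart, 35 of the 36 genes passed the filter on low counts, all but Siglech. Genes were called at an adjusted p below 0.05 in edgeR's quasi-likelihood test with Benjamini-Hochberg adjustment over all 14156 genes tested. In mutant hearts 17 of the 35 were lower and 0 higher in PTU than in untreated libraries, where 13.8% of all genes were called and 7.54% were called lower. The median log2 change of the 35 was -0.94, against -0.015 over all genes tested. Without mutant untreated replicate 2, 6 were called, all lower. Without mutant PTU replicate 2 the count was 6, and without mutant PTU replicate 3 it was 10. For fits that left out 1 library the share of all genes called is not given here. A change in such a count therefore cannot be read as particular to these genes.

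Between mutant PTU+TH and mutant untreated hearts 17 were lower and 1 higher, where 22.0% of all genes were called, 11.3% lower and 10.7% higher. The median log2 change was -0.77 over the 35 and -0.019 over all genes. Without mutant untreated replicate 2 the count was 9, all lower. Between mutant PTU+TH and mutant PTU hearts 0 were called in edgeR, where 0.41% of all genes were called. In that comparison 3 of the 35 and 1007 of all genes had an unadjusted p below 0.05, and DESeq2 called 0 of the 35.

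In WT hearts 5 genes were lower and 0 higher in PTU than in untreated libraries, where 4.9% of all genes were called, 3.02% lower and 1.88% higher. The median log2 change was -0.58 over the 35 and 0.01 over all genes. The count was 2 when WT untreated replicate 1 was left out. It was 12, all lower, without WT PTU replicate 1, the library with low sums of cardiomyocyte (Myh7 among them) and endothelial markers. The part of those markers was not tested. Between WT PTU+TH and WT PTU hearts 5 were lower and 2 higher, where 11.4% of all genes were called, 5.59% lower and 5.81% higher, and the medians were 0.08 over the 35 and -0.026 over all genes. That count was 4 without WT PTU replicate 2, WT PTU replicate 3 or WT PTU+TH replicate 1.

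Between WT PTU+TH and WT untreated hearts 10 were lower and 0 higher, where 2.03% of all genes were called and 1.03% were called lower. The medians were -0.70 over the 35 and -0.012 over all genes. Leaving out WT PTU+TH replicate 1 or WT untreated replicate 4 gave 6, and leaving out WT PTU+TH replicate 2 or replicate 3 gave 5. The comparisons within a genotype share libraries, so their values stand side by side and are not independent of each other.

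**Figure D2:**
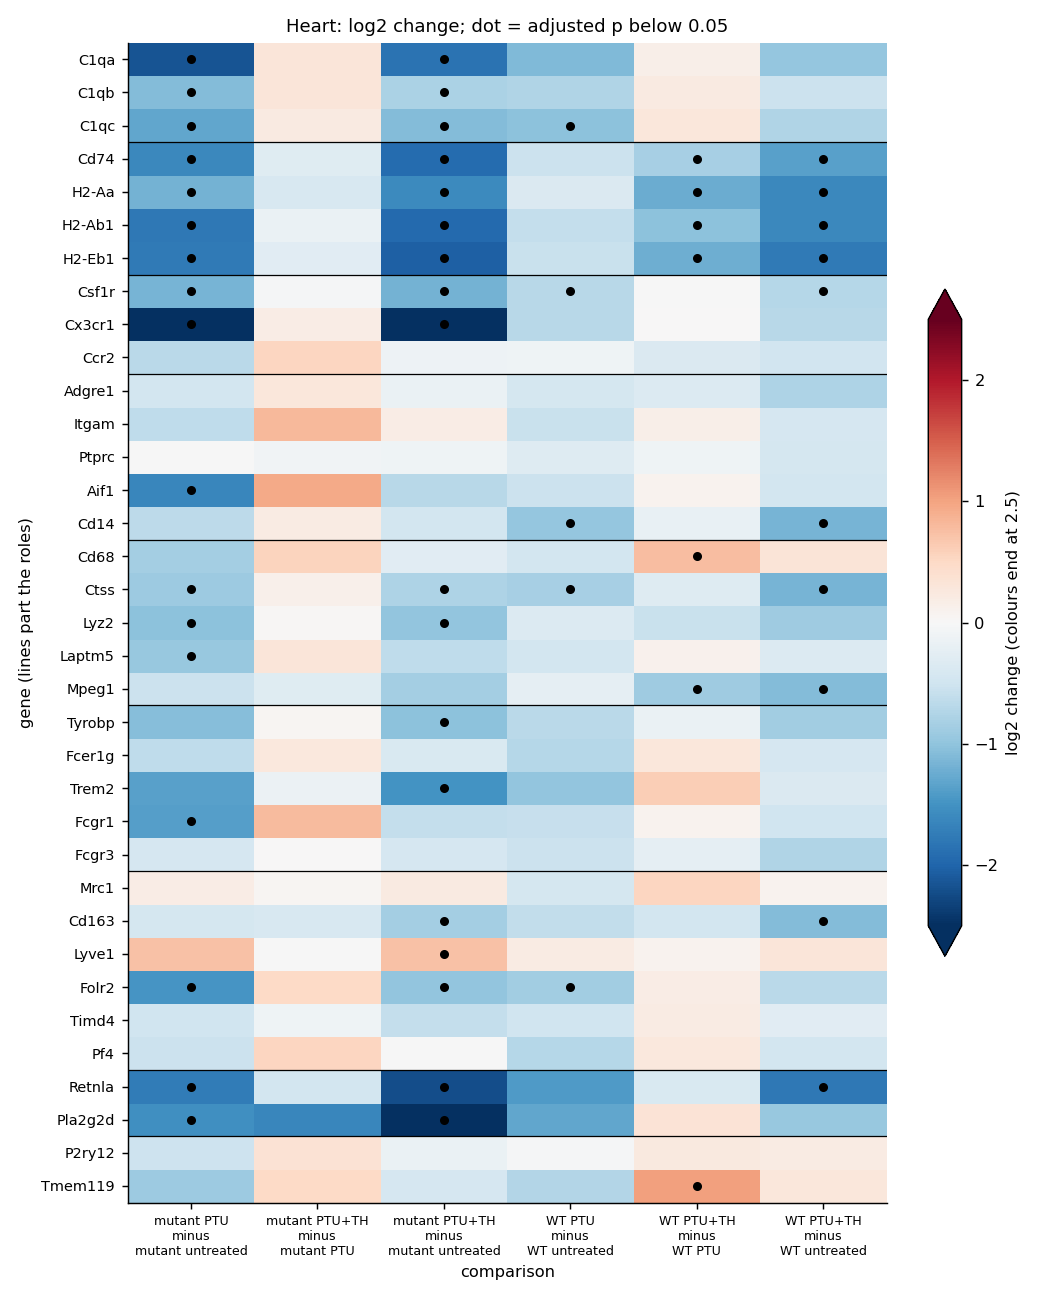
Log2 change in heart of the 35 genes tested (rows, grouped by role) in 6 comparisons (columns), from blue for lower to red for higher in the group named first; dots mark an adjusted p below 0.05. The class II block is marked in both comparisons of WT PTU+TH hearts, where H2-Eb1 changed by -1.22 and -1.77, and in both comparisons with mutant untreated hearts, where it changed by -1.76 in mutant PTU and -2.05 in mutant PTU+TH hearts.

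The 4 class II genes moved together. In WT hearts all 4 were lower after 24 hours of TH than in PTU hearts, while PTU against untreated was not called for any of the 4. Without WT PTU replicate 1, H2-Eb1 and H2-Ab1 were lower in WT PTU than in WT untreated hearts, at log2 changes of -0.81 and -0.82, both called. In mutant hearts all 4 were already lower in PTU than in untreated libraries, and PTU+TH against PTU was not called. The summed level of the 4 genes was 69.4 ± 15.5 CPM in mutant PTU+TH, 85.3 ± 1.74 in mutant PTU and 257 ± 29.6 in mutant untreated hearts. In WT hearts the sum was 71.0 ± 9.9 CPM with PTU+TH, 141 ± 32.2 with PTU and 202 ± 35.7 untreated (SD).

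H2-Eb1 (ENSMUSG00000060586), a class II beta chain, had 9.2, 7.19, 8.64 and 12.8 CPM in WT PTU+TH hearts, against 32.5, 19.2, 22.0 and 13.9 CPM in WT PTU hearts. In WT untreated hearts it had 42.0, 23.9, 30.2 and 33.1 CPM. All WT PTU+TH libraries lay below all WT PTU and all WT untreated libraries, whereas WT PTU and WT untreated overlapped. Its log2 change between WT PTU+TH and WT PTU was -1.22 ± 0.25 (SE, adjusted p = 0.00177 in edgeR), and between WT PTU+TH and WT untreated it was -1.77 ± 0.253 (adjusted p = 0.000262). Between WT PTU and WT untreated it was -0.56, not called.

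In mutant hearts H2-Eb1 had 11.6, 5.45, 11.3 and 12.1 CPM with PTU+TH, 12.4, 11.6 and 13.0 CPM with PTU, and 38.2, 48.1 and 40.2 CPM untreated. Both treated groups lay wholly below the untreated one and overlapped each other. The log2 change between mutant PTU and mutant untreated was -1.76 ± 0.295 (adjusted p = 0.00348 in edgeR), and -1.66 without mutant untreated replicate 2, still called. Between mutant PTU+TH and mutant untreated it was -2.05 ± 0.27 (adjusted p = 0.000109 in edgeR), and -1.97 without that library.

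Cd74 (ENSMUSG00000024610), the invariant chain, had 39.3, 24.1, 33.5 and 40.4 CPM in mutant PTU+TH, 43.7, 41.4 and 42.4 CPM in mutant PTU, and 145, 141 and 105 CPM in mutant untreated hearts. The WT hearts had 44.3, 36.5, 32.5 and 42.7 CPM with PTU+TH, 61.8, 70.6, 91.6 and 53.2 CPM with PTU, and 118, 90.4, 105 and 86.7 CPM untreated. The 3 mutant PTU libraries lay below all 4 WT PTU libraries, and WT PTU lay between its neighbours, overlapping the untreated group. Its log2 changes were -1.62 ± 0.219 for mutant PTU against mutant untreated (adjusted p = 0.000589 in edgeR) and -1.55 without mutant untreated replicate 2. For WT PTU+TH against WT PTU the change was -0.83 ± 0.185 (adjusted p = 0.00378 in edgeR), and against WT untreated it was -1.36 ± 0.187 (adjusted p = 0.000195).

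H2-Ab1 (ENSMUSG00000073421), the beta chain that pairs with H2-Aa, had 11.9, 10.4, 10.4 and 12.1 CPM in WT PTU+TH, against 32.7, 16.6, 26.9 and 14.8 CPM in WT PTU and 46.9, 30.9, 31.4 and 28.5 CPM in WT untreated hearts. In mutant hearts it had 13.4, 8.5, 10.8 and 14.7 CPM with PTU+TH, 12.6, 13.6 and 13.5 CPM with PTU, and 39.2, 57.1 and 41.6 CPM untreated. The 4 WT PTU+TH values spanned less than the 4 WT PTU values, and all were lower. Its log2 change was -1.03 ± 0.226 between WT PTU+TH and WT PTU (adjusted p = 0.00338 in edgeR). Between mutant PTU and mutant untreated it was -1.78 ± 0.269 (adjusted p = 0.00163 in edgeR), and -1.60 without mutant untreated replicate 2.

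H2-Aa (ENSMUSG00000036594), the alpha chain, had 12.7, 10.8, 8.77 and 13.0 CPM in WT PTU+TH, against 32.6, 26, 31.1 and 17.2 CPM in WT PTU and 44.1, 33.3, 36.3 and 25.2 CPM in WT untreated hearts. In mutant hearts it had 17.2, 10.4, 11.1 and 13.7 CPM with PTU+TH, 17.7, 16.8 and 17.3 CPM with PTU, and 52.4, 28.1 and 36 CPM untreated. Treated libraries lay below untreated ones in the mutant, where replicate 2 was the lowest untreated value. Its log2 change was -1.24 ± 0.223 between WT PTU+TH and WT PTU (adjusted p = 0.000477 in edgeR). Between mutant PTU and mutant untreated it was -1.19 ± 0.259 (adjusted p = 0.00909 in edgeR), -1.35 without mutant untreated replicate 2, and not called without mutant PTU replicate 2. Mutant PTU+TH hearts were also lower than mutant untreated hearts in Cd74 at a log2 change of -1.92 ± 0.201 (SE, adjusted p = 1.22e-05 in edgeR), in H2-Ab1 at -1.94 ± 0.245 (adjusted p = 8.13e-05) and in H2-Aa at -1.59 ± 0.24 (adjusted p = 0.000329). Without mutant untreated replicate 2 these changes were -1.88, -1.78 and -1.77, all called. The calls of all 4 genes between WT PTU+TH and either other WT group held whichever of the 8 libraries was left out.

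**Figure D3:**
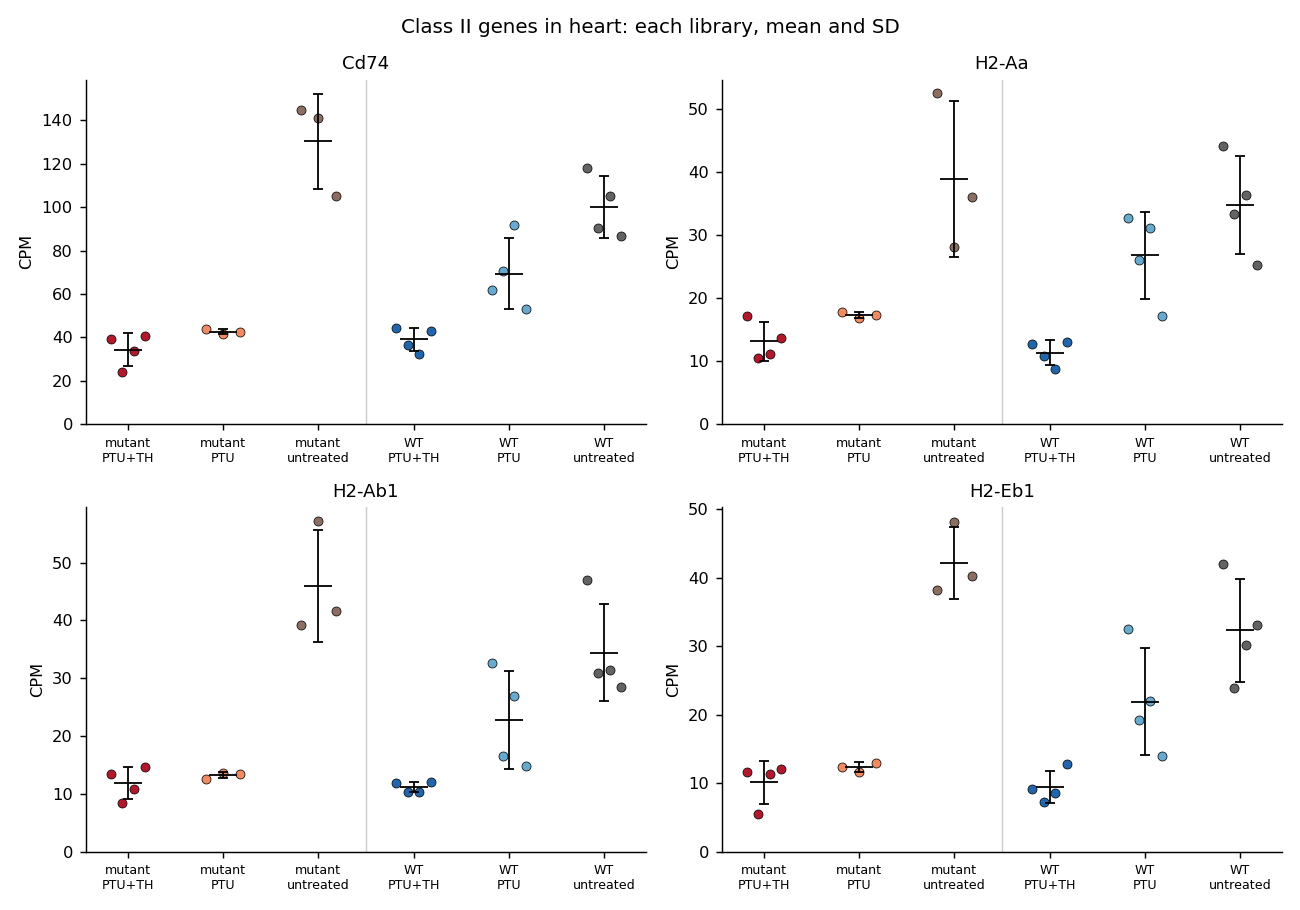
Level (CPM, linear axis from 0) of the 4 class II genes in each heart library by group, with mutant groups left of WT groups; bars are the mean and SD. WT PTU+TH libraries sit below WT PTU libraries for each gene, while mutant PTU libraries sit near mutant PTU+TH and below mutant untreated, with H2-Ab1 between 12.6 and 13.6 CPM.

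Mutant and WT PTU hearts differed in Myh6, whereas none of the 4 class II genes was called between them in edgeR. Myh6, the alpha myosin heavy chain known to depend on TH, ran from 4875 to 13714 CPM in mutant PTU hearts, against 21.2 to 488 CPM in WT PTU hearts, a log2 change of 5.67 ± 0.699 (SE, adjusted p = 6.96e-05 in edgeR). Myh7, the beta chain known to fall with TH, ran from 7268 to 16282 CPM in mutant PTU and from 7457 to 24788 CPM in WT PTU hearts, and these overlapped through WT PTU replicate 1, which had 7457 CPM while its group ran from 21949 to 24788 CPM otherwise. In untreated hearts Myh7 ran from 153 to 482 CPM in mutant and from 103 to 303 CPM in WT mice. The part of the Myh6 difference in the class II values was not tested.

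Markers of B, T and dendritic cells were measured beside class II. Of 11 markers of B and T cells 4 were tested in heart, and Ighm, the immunoglobulin mu heavy chain, was the member called. Ighm averaged 77.9 ± 17.3 CPM in mutant PTU+TH and 4.12 ± 1.28 in mutant PTU hearts, and 76.4 ± 11.6 CPM in WT PTU+TH and 3.77 ± 0.656 in WT PTU hearts (SD). The log2 change of Ighm between WT PTU+TH and WT PTU was 4.33 ± 0.22 (adjusted p = 1.03e-11 in edgeR), opposite in sign to class II. The B cell receptor genes Cd79a and Cd79b stayed between 0 and 0.658 CPM and between 0 and 1.33 CPM over all heart libraries. The summed level of the 8 dendritic cell markers, of which 1 was tested and not called, lay between 8.59 and 15.7 CPM over all heart libraries. Most of that sum was Zbtb46, the member tested, with a median of 11.0 CPM, and the other 7 had medians between 0.0611 CPM for Xcr1 and 0.322 CPM for Itgax. The part of these cells in the class II values was not tested.

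Genes that load or switch on class II followed it in part. Of 12 such genes 10 were tested in heart. The calls in this list came from mutant hearts. Over all genes, 7.54% were called lower in mutant PTU and 11.3% in mutant PTU+TH than in mutant untreated hearts. In mutant PTU against untreated hearts 3 were lower, H2-DMb1 at a log2 change of -1.90 ± 0.572 and H2-DMa at a log2 change of -1.38 ± 0.457, the chains that exchange peptides on class II, and the protease Lgmn at -0.50 ± 0.169 (SE). Their adjusted p in edgeR were 0.032, 0.0454 and 0.0499, and without mutant untreated replicate 2 the changes were -1.69, -1.64 and -0.37, not called. In mutant PTU+TH against untreated hearts H2-DMb1 changed by -1.92 and H2-DMa by -1.22, both called, and without that library by -1.72, not called, and -1.49, called. Ciita, the master activator of class II genes, averaged 0.552, 0.469 and 1.23 CPM in mutant PTU+TH, PTU and untreated hearts and 0.576, 1.01 and 1.08 CPM in the WT groups in the same order. These levels are near the low end of detection, and Ciita was not called.

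Of the 3 C1q genes 1, C1qc, was lower in WT PTU than in WT untreated hearts, where 3.02% of all genes were called lower, and the call was lost without WT untreated replicate 1. All 3 were lower in mutant PTU than in mutant untreated hearts, where 7.54% of all genes were called lower, and all 3 calls were lost without mutant untreated replicate 2. None of the 3 was called between PTU+TH and PTU in either genotype. C1qc (ENSMUSG00000036896) had 15.4, 13.0, 11.5 and 12.3 CPM in WT PTU hearts, against 42.5, 22.4, 21.8 and 20.0 CPM in WT untreated hearts. In WT PTU+TH hearts it had 21.4, 16.7, 11.9 and 13.6 CPM. The WT PTU libraries lay below all WT untreated libraries, and WT untreated replicate 1 stood above the other 3 of its group. The log2 change between WT PTU and WT untreated was -1.02 ± 0.237 (adjusted p = 0.0105 in edgeR), and -0.71 without WT untreated replicate 1.

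In mutant hearts C1qc had 20.1, 11.6, 17.1 and 13.3 CPM with PTU+TH, 13.0, 12.7 and 14.1 CPM with PTU, and 31.9, 43.8 and 24.3 CPM untreated. Both treated groups lay below the untreated one. The log2 change was -1.30 ± 0.283 for mutant PTU against mutant untreated (adjusted p = 0.00896 in edgeR). It was -1.07 without mutant untreated replicate 2, where it was not called, and it was also not called without mutant PTU replicate 2. Between mutant PTU+TH and mutant untreated it was -1.08, and -0.87 without that library, not called.

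C1qa (ENSMUSG00000036887) showed the same order with more spread. It had 11.9, 7.94, 11.3 and 9.28 CPM in mutant PTU+TH, 9.25, 8.23 and 6.87 CPM in mutant PTU, and 19.9, 72.7 and 21.4 CPM in mutant untreated hearts. WT hearts had 15.8, 12.6, 9.57 and 8.36 CPM with PTU+TH, 17.6, 7.91, 7.55 and 8.66 CPM with PTU, and 38.3, 14.3, 16.0 and 22.1 CPM untreated. Its value in mutant untreated replicate 2 was the highest of all heart libraries, and WT PTU overlapped WT untreated. Its log2 change between mutant PTU and mutant untreated was -2.16 ± 0.448 (adjusted p = 0.00783 in edgeR), and -1.34 without that library, not called. For C1qb the change was -1.08 ± 0.267 (adjusted p = 0.0148 in edgeR) and -0.93 without it, not called. Against mutant untreated, mutant PTU+TH hearts had C1qa changed by -1.85 and C1qb by -0.79, both called, and without that library by -1.05 and -0.66, neither called. In WT PTU against untreated hearts C1qa changed by -1.11 and C1qb by -0.75, neither called.

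Among the receptors, Csf1r was lower in PTU than in untreated hearts of both genotypes. Csf1r (ENSMUSG00000024621) had 14.6, 12.1, 14.3 and 13.0 CPM in mutant PTU+TH, 15.2, 13.6 and 12.7 CPM in mutant PTU, and 33.8, 34.0 and 25.2 CPM in mutant untreated hearts. The WT values were 20.3, 16.8, 13.3 and 11.7 CPM with PTU+TH, 11.6, 19.6, 15.7 and 15.7 CPM with PTU, and 24.1, 24.9, 25.7 and 26.9 CPM untreated. In each genotype all treated libraries lay below all untreated libraries. The log2 change between mutant PTU and mutant untreated was -1.16 ± 0.203 (adjusted p = 0.00424 in edgeR), -1.08 without mutant untreated replicate 2, and called whichever of the 6 libraries was left out. Between mutant PTU+TH and mutant untreated it was -1.19 (adjusted p = 0.000434 in edgeR), and -1.14 without that library. That call held whichever of the 7 libraries was left out. Between WT PTU and WT untreated it was -0.70 ± 0.17 (adjusted p = 0.0144 in edgeR), called whichever of the 8 libraries was left out but lost with no filter on low counts, at -0.66. Between WT PTU+TH and WT PTU it was -0.01, not called, and between WT PTU+TH and WT untreated it was -0.71, lost in 4 of the 8 fits that left out 1 library and also lost with no filter.

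Cx3cr1 (ENSMUSG00000052336) was low in heart apart from 1 library. It had 2.2, 2.01, 1.77 and 1.61 CPM in mutant PTU+TH, 2.27, 0.927 and 1.67 CPM in mutant PTU, and 5.54, 61.4 and 3.75 CPM in mutant untreated hearts. In WT hearts it had 1.79, 2.66, 1.36 and 1.58 CPM with PTU+TH, 1.56, 2.55, 1.42 and 1.91 CPM with PTU, and 2.26, 3.18, 3.28 and 3.21 CPM untreated. The mutant untreated libraries were all above the treated mutant ones, and in WT the groups overlapped. Between mutant PTU and mutant untreated the log2 change was -3.69 ± 0.698 (adjusted p = 0.00621 in edgeR), and -1.48 without mutant untreated replicate 2, not called. Between mutant PTU+TH and mutant untreated it was -3.50 ± 0.614 (adjusted p = 0.0011 in edgeR), and -1.30 without that library, still called. In WT PTU against untreated hearts it was -0.69, not called.

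**Figure D4:**
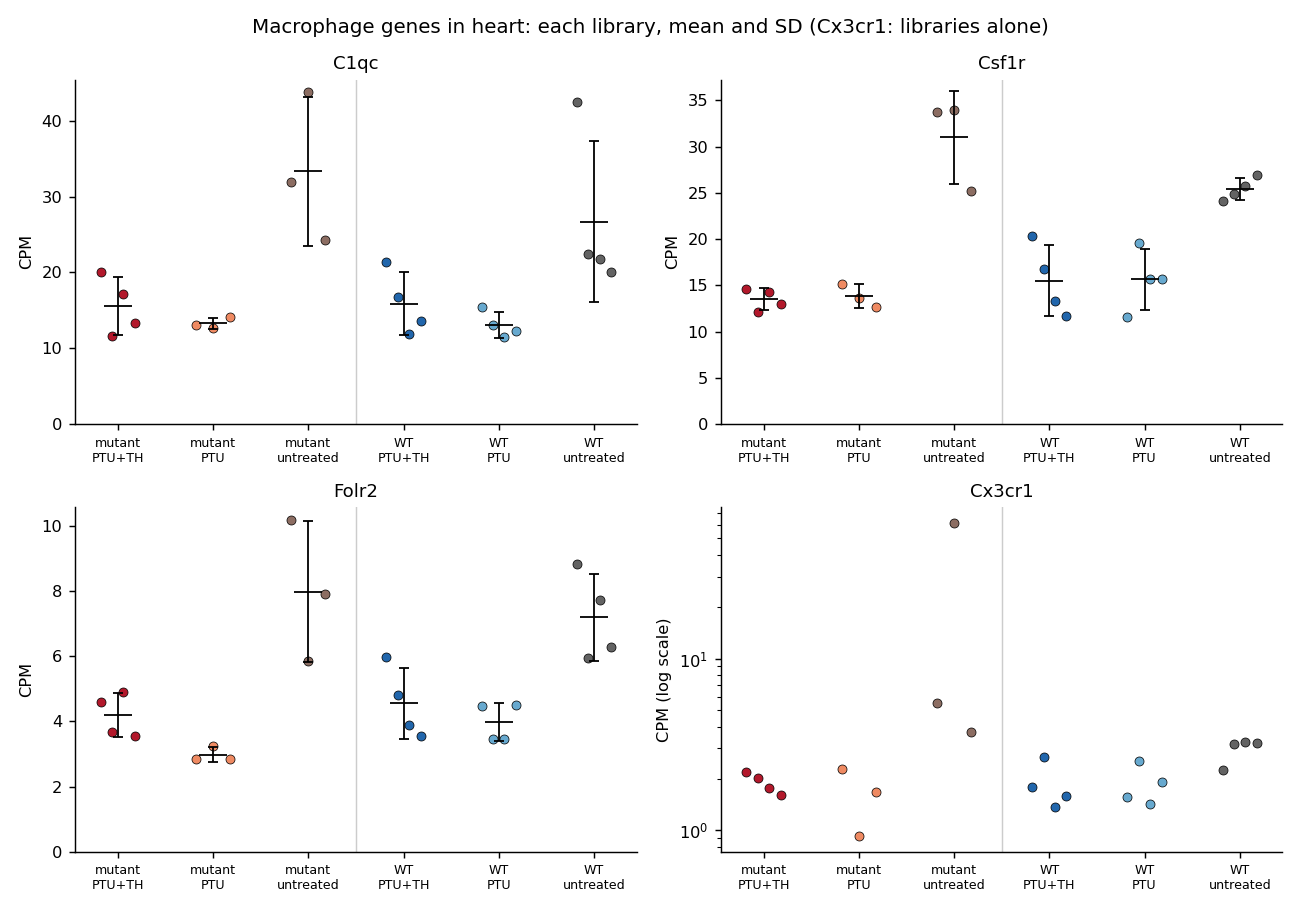
Level (CPM) in each heart library of C1qc, Csf1r and Folr2 on linear axes from 0, with the mean and SD, and of Cx3cr1 on a log axis, libraries alone; mutant groups are left of WT groups. Untreated groups lie highest, and the Cx3cr1 value of 61.4 CPM in mutant untreated replicate 2 stands far above the other libraries.

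Of the 5 lysosomal and killing genes, Ctss was the one called most often. Ctss (ENSMUSG00000038642) had 5.0, 6.97, 6.24 and 5.95 CPM in WT PTU+TH, 8.27, 7.32, 8.18 and 6.59 CPM in WT PTU, and 19.1, 12.3, 12.3 and 10.7 CPM in WT untreated hearts. In mutant hearts it had 11.4, 7.06, 6.53 and 7.59 CPM with PTU+TH, 8.5, 7.07 and 6.67 CPM with PTU, and 15.2, 14.5 and 12.1 CPM untreated. Both treated groups lay below the untreated group in each genotype. The log2 change was -1.16 ± 0.198 between WT PTU+TH and WT untreated (adjusted p = 0.00167 in edgeR), called whichever library was left out. It was -0.83 ± 0.194 between WT PTU and WT untreated (adjusted p = 0.011 in edgeR), not called without WT untreated replicate 1. Between mutant PTU and mutant untreated it was -0.90, and -0.87 without mutant untreated replicate 2, not called.

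The other genes of this role moved in different ways. Mpeg1, the pore-forming perforin-2, averaged 3.71 ± 0.581 CPM in WT PTU+TH and 6.82 ± 1.59 in WT PTU hearts (SD, n = 4 each), a log2 change of -0.88 ± 0.278 (SE, adjusted p = 0.0413 in edgeR). Cd68, a lysosomal membrane protein, averaged 8.26 ± 2.7 CPM in WT PTU+TH and 4.8 ± 0.426 in WT PTU hearts, a log2 change of 0.78 ± 0.25 (adjusted p = 0.0445 in edgeR). Mpeg1 was also lower in WT PTU+TH than in WT untreated hearts, at a log2 change of -1.09 (adjusted p = 0.0403 in edgeR), lost in 7 of 8 such fits. The calls against WT PTU were near the threshold: that of Mpeg1 was lost in 7 and that of Cd68 in 6 of the 8 fits that left out 1 library. Lysozyme 2 (Lyz2) and Laptm5 were lower in mutant PTU than in mutant untreated hearts, at log2 changes of -1.02 and -0.94. Without mutant untreated replicate 2 they changed by -0.67 and -0.95, neither called.

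Among the general macrophage genes, Cd14, the co-receptor for endotoxin, was lower in WT hearts. It averaged 1.69 CPM in WT PTU+TH, 1.92 ± 0.238 in WT PTU and 3.75 ± 0.698 in WT untreated hearts. Its log2 change between WT PTU and WT untreated was -0.97 ± 0.284 (adjusted p = 0.0491 in edgeR), lost in 6 of the 8 fits that left out 1 library. Between WT PTU+TH and WT untreated it was -1.16 (adjusted p = 0.0377 in edgeR), lost in 7 of 8. Aif1, a calcium-binding protein of activated macrophages, changed by -1.64 between mutant PTU and mutant untreated hearts, and by -1.39 without mutant untreated replicate 2, not called. Adgre1, which encodes F4/80, the integrin Itgam and the leukocyte phosphatase Ptprc were not called in any treatment comparison in heart. In WT PTU against untreated hearts these 3 changed by -0.44, -0.55 and -0.32.

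The receptors of the immunoreceptor type were not called in WT hearts. These are the adaptors Tyrobp and Fcer1g, the lipid receptor Trem2, and the antibody receptors Fcgr1 and Fcgr3. In WT PTU against untreated hearts the 5 ranged between -0.98 for Trem2 and -0.53 for Fcgr3. In mutant hearts Fcgr1 was lower in PTU than in untreated libraries, at a log2 change of -1.38, and at -1.46 without mutant untreated replicate 2, not called. Tyrobp and Trem2 were lower in mutant PTU+TH than in mutant untreated hearts, at a log2 change of -1.02 and -1.50, and at -0.83 and -1.33 without that library, not called. Downstream of these receptors, 11 of 12 signalling genes were tested. In mutant PTU+TH against untreated hearts the phosphatase Ptpn6 changed by -1.0 ± 0.326 and the adaptor Card9 by -1.23 ± 0.434 (SE, adjusted p = 0.0318 and 0.0435 in edgeR). Without mutant untreated replicate 2 Ptpn6 changed by -1.18 and was called, and Card9 by -0.94 and was not.

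The resident heart macrophage genes did not move as a group. Folr2, a folate receptor, was lower in PTU than in untreated hearts of both genotypes and in mutant PTU+TH than in mutant untreated hearts, Cd163 was lower in PTU+TH than in untreated hearts, and Lyve1 was higher in mutant PTU+TH than in mutant untreated hearts. Folr2 (ENSMUSG00000032725) had 4.59, 3.69, 4.92 and 3.55 CPM in mutant PTU+TH, 2.86, 3.24 and 2.84 CPM in mutant PTU, and 10.2, 5.86 and 7.91 CPM in mutant untreated hearts. In WT hearts it had 5.98, 4.81, 3.89 and 3.54 CPM with PTU+TH, 4.46, 3.47, 3.46 and 4.52 CPM with PTU, and 8.84, 5.95, 7.74 and 6.28 CPM untreated. The PTU libraries lay below the untreated ones in each genotype. The log2 change was -1.47 ± 0.255 between mutant PTU and mutant untreated (adjusted p = 0.0036 in edgeR), and -1.60 without mutant untreated replicate 2, still called. For mutant PTU+TH against mutant untreated it was -0.98 ± 0.227 (adjusted p = 0.00538 in edgeR), -1.13 without that library, and called whichever of the 7 libraries was left out. Between WT PTU and WT untreated it was -0.86 ± 0.203 (adjusted p = 0.0125 in edgeR), not called without WT PTU replicate 3.

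Lyve1 had 26.5, 26.9, 35.7 and 22.3 CPM in mutant PTU+TH and 32.1, 26.5 and 25.2 CPM in mutant PTU hearts, against 25.5, 9.77 and 13.1 CPM in mutant untreated hearts. The groups overlapped through mutant untreated replicate 1. Its log2 change between mutant PTU+TH and mutant untreated was 0.74 ± 0.254 (adjusted p = 0.0403 in edgeR), and 0.52 without mutant untreated replicate 2, not called. Lyve1 also marks lymphatic endothelium, and Prox1, which defines those cells, changed by 0.73 ± 0.258 in the same comparison (adjusted p = 0.0458 in edgeR) and by 0.63 without that library, not called. Ccl21a, a chemokine of lymphatic vessels, went the other way, at -1.68 ± 0.265 (adjusted p = 0.000439 in edgeR). Without that library it was -1.65, still called. The median log2 change of the 5 lymphatic genes tested was -0.29. The part of lymphatic cells in the Lyve1 values was not tested. In WT hearts Lyve1 averaged 18.6 ± 2.58 CPM with PTU+TH, 17.5 ± 3.56 with PTU and 15.1 ± 3.22 untreated, with no call.

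Cd163, the scavenger receptor for haemoglobin, averaged 5.85 ± 1.29 CPM in WT PTU+TH, 8.12 ± 2.72 in WT PTU and 12.4 ± 2.93 in WT untreated hearts. Its log2 change between WT PTU+TH and WT untreated was -1.08 (adjusted p = 0.0358 in edgeR), lost in 5 of the 8 fits that left out 1 library. In mutant hearts that change was -0.85 (adjusted p = 0.0421 in edgeR), and -0.86 without mutant untreated replicate 2, not called. Mrc1, Timd4 and the chemokine Pf4 were not called in any treatment comparison. Mrc1 averaged 25.3 ± 3.05 CPM in WT PTU+TH and 17.6 ± 3.04 CPM in WT PTU hearts, a log2 change of 0.53 (adjusted p = 0.0802 in edgeR).

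Resident and recruited markers were then set against each other in heart. Summed over Timd4, Lyve1, Folr2, Cd163, Mrc1 and Pf4, the resident level was 81.2 ± 10.9 CPM in mutant PTU+TH, 77.8 ± 13.1 in mutant PTU and 75.4 ± 23.7 in mutant untreated hearts. In WT hearts it was 66.5 ± 3.01 CPM with PTU+TH, 57.4 ± 6.19 with PTU and 75.2 ± 7.92 untreated (SD). The WT PTU libraries, between 49.9 and 62.7 CPM, lay below the WT untreated ones, between 67.6 and 84.1 CPM, and the mutant groups overlapped, with mutant untreated replicate 2 lowest at 56.7 CPM. Mrc1 and Lyve1 make up most of this sum. Ccr2, the receptor that brings monocytes in from blood, stayed between 0.536 and 2.5 CPM over all heart libraries.

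Ccr2 was not called in any heart comparison, with log2 changes of -0.11 for WT PTU against untreated, -0.36 for WT PTU+TH against PTU and -0.67 for mutant PTU against untreated. The log2 ratio of the resident sum to Ccr2 was 5.54 ± 0.543 in mutant PTU+TH, 5.98 ± 0.425 in mutant PTU and 5.53 ± 0.719 in mutant untreated hearts. In WT hearts it was 6.00 ± 0.657 with PTU+TH, 5.30 ± 0.263 with PTU and 5.64 ± 0.484 untreated. These means differ by about as much as libraries within a group do, and no test was run on the ratio. Ly6c2, Chil3 and Plac8, which mark fresh monocytes, reached at most 0.488, 0.505 and 0.414 CPM in any heart library, so a small change in recruited cells would not be detectable at this depth.

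Of the 9 recruited monocyte markers 6 were tested in heart, and Spn, the sialophorin CD43, was the member called. It was lower in mutant PTU than in mutant untreated hearts, at a log2 change of -2.86 ± 0.714 (SE, adjusted p = 0.014 in edgeR), and at -2.88 without mutant untreated replicate 2, not called. Spn averaged 0.16 CPM in mutant PTU and 1.23 CPM in mutant untreated hearts, levels near the low end of detection. The summed recruited markers ran from 30.3 to 117 CPM, mostly Fn1 and Vcan, which fibroblasts also make. Without these it ran from 2.78 to 7.39 CPM, an omission made after the values were seen. Its group means were then 4.53, 3.43 and 6.51 CPM in mutant PTU+TH, PTU and untreated hearts and 3.78, 4.01 and 4.79 CPM in WT hearts in the same order. Of 7 neutrophil markers 2 were tested and neither was called, with a summed level between 0.561 and 9.67 CPM.

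**Figure D5:**
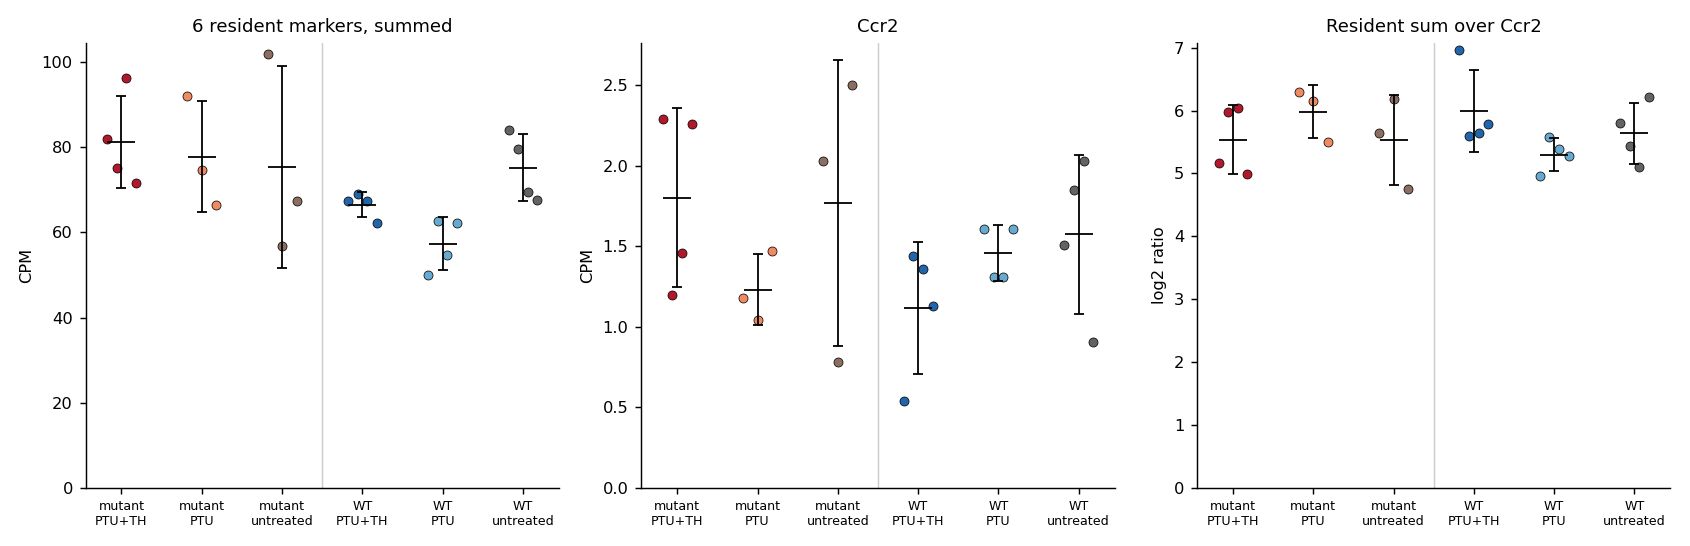
Summed level of the 6 resident markers (CPM), level of Ccr2 (CPM) and log2 ratio of the sum to Ccr2 in each heart library, with the mean and SD and with mutant groups left of WT groups. WT PTU libraries (49.9 to 62.7 CPM) lie below WT untreated ones (67.6 to 84.1 CPM) in the resident sum, while the ratios of the groups overlap.

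Both secreted products of alternative activation were lower in treated mutant hearts, and Retnla also in WT PTU+TH hearts. Retnla (ENSMUSG00000061100), a resistin-like protein of alternatively activated macrophages, had 0.478, 0.642, 1.08 and 1.86 CPM in mutant PTU+TH, 1.09, 1.62 and 1.57 CPM in mutant PTU, and 5.97, 6.26 and 2.71 CPM in mutant untreated hearts. In WT hearts it had 0.536, 0.79, 0.556 and 1.81 CPM with PTU+TH, 1.75, 0.85, 1.14 and 0.996 CPM with PTU, and 5.93, 2.67, 2.09 and 2.37 CPM untreated. Treated libraries lay below untreated ones in each genotype. Its log2 change was -2.22 ± 0.479 between mutant PTU+TH and mutant untreated (adjusted p = 0.00343 in edgeR), and -2.08 without mutant untreated replicate 2, still called. Between WT PTU+TH and WT untreated it was -1.79 ± 0.441 (adjusted p = 0.0321 in edgeR), lost in 4 of the 8 fits that left out 1 library. For mutant PTU against mutant untreated the change was -1.75, and -1.60 without mutant untreated replicate 2, not called. Between WT PTU and WT untreated it was -1.41 (adjusted p = 0.0504), not called.

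Pla2g2d (ENSMUSG00000041202), a secreted phospholipase, rested on few counts. It had 0.0956, 0.16, 0.384 and 0.404 CPM in mutant PTU+TH, from 13 counts in all, 0.673, 0.579 and 1.27 CPM in mutant PTU, and 1.81, 1.95 and 3.43 CPM in mutant untreated hearts. The WT hearts had 0.804, 0.359, 0.617 and 0.904 CPM with PTU+TH, 0.368, 0.523, 0.227 and 1.07 CPM with PTU, and 1.41, 1.03, 1.3 and 1.4 CPM untreated. In the mutant the 3 groups did not overlap, with PTU+TH lowest. The log2 change between mutant PTU+TH and mutant untreated was -3.17 ± 0.505 (adjusted p = 0.000437 in edgeR), and -3.26 without mutant untreated replicate 2, still called. For mutant PTU against mutant untreated the change was -1.54, and -1.62 without that library, not called. Between mutant PTU+TH and mutant PTU it was -1.63 (adjusted p = 0.317), not called.

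Of the 3 microglial genes of the set P2ry12 and Tmem119 were tested in heart. Tmem119, a membrane protein of microglia that other tissues also make, had 2.95, 1.44, 4.51 and 2.64 CPM in WT PTU+TH hearts, against 2.16, 1.18, 1.19 and 1.07 CPM in WT PTU hearts. The groups overlapped, and its log2 change was 1.02 ± 0.321 (adjusted p = 0.0404 in edgeR), lost in 6 of the 8 fits that left out 1 library. P2ry12 was not called in any heart comparison. Siglech was at most 0.427 CPM in heart apart from 2.74 CPM, from 7 counts, in mutant untreated replicate 2. These 3 belong to a longer list of 11 microglial genes, of which 9 were tested in heart. In WT PTU+TH against WT PTU hearts Olfml3, a secreted olfactomedin-like protein that other tissues also make, was lower at a log2 change of -0.58 ± 0.174 (SE, adjusted p = 0.0305 in edgeR), opposite in sign to Tmem119, and the median of the 9 was -0.23, against -0.026 over all genes. In mutant PTU against untreated hearts, where 7.54% of all genes were called lower, 3 of the 9 were lower. The 3 were Olfml3 at -0.82, Selplg, the selectin ligand PSGL-1, at -1.06 and the receptor Fcrls at -1.32. None was called without mutant untreated replicate 2. In mutant PTU+TH against untreated hearts Olfml3 and Selplg were lower, at -0.88 and -1.13, and at -0.72 and -1.07 without that library, both still called.

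Signals that keep macrophages alive or attract them were followed from a list of 13 genes, all tested in heart. Csf1, the main ligand of Csf1r, had 38.8, 42.1, 40.3 and 38.9 CPM in WT PTU+TH hearts, against 13.2, 20.2, 17.8 and 21.3 CPM in WT PTU hearts. In WT untreated hearts it had 24.2, 33.6, 42.1 and 38.2 CPM. The WT PTU libraries lay below both other WT groups. Its log2 change was 1.15 ± 0.177 between WT PTU+TH and WT PTU (adjusted p = 8.99e-05 in edgeR) and -0.93 ± 0.177 between WT PTU and WT untreated (adjusted p = 0.00192). Csf1r changed by -0.01 between WT PTU+TH and WT PTU.

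Between WT PTU+TH and WT PTU hearts, where 5.81% of all genes were called higher and 5.59% lower, 6 of the 13 were higher and 0 lower. They included, besides Csf1, Cx3cl1, the ligand of Cx3cr1, and the monocyte-attracting chemokines Ccl2, Ccl7 and Ccl12. Cx3cl1 changed by 0.86 ± 0.208, Ccl2 by 1.72 ± 0.453 and Ccl12 by 1.70 ± 0.476 (SE), with adjusted p of 0.00703, 0.0125 and 0.0185 in edgeR. Ccl2 had 3.3, 5.82, 5.8 and 1.28 CPM in WT PTU+TH, against 1.84, 1.18, 1.02 and 0.766 CPM in WT PTU hearts. Csf1 averaged 35.1 ± 3.52 CPM in mutant PTU+TH and 26.6 ± 5.77 CPM in mutant PTU hearts (SD), not called. In mutant PTU against untreated hearts Csf1 changed by -0.81 (adjusted p = 0.017 in edgeR) and by -0.73 without mutant untreated replicate 2, not called. There Il34, of the same list, changed by -1.20 (adjusted p = 0.0388 in edgeR) and by -0.85 without that library, not called. In mutant PTU+TH against untreated hearts Il34 changed by -1.31 and Ccl2 by 1.61 (adjusted p = 0.0115 and 0.0404 in edgeR). Without that library these changes were -0.98 and 1.40, neither called.

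Other lists bear on complement and on interferon gamma, which is known to raise class II. Of 12 complement genes tested, properdin (Cfp) and the C5a receptor C5ar1 were higher in WT PTU+TH than in WT PTU hearts, by 1.07 ± 0.255 and 0.90 ± 0.271 (SE, adjusted p = 0.00618 and 0.0313 in edgeR). C1ra was lower in mutant PTU+TH than in mutant untreated hearts, at a log2 change of -0.65, and at -0.80 without mutant untreated replicate 2. Of 15 interferon gamma response genes, Gbp3, a guanylate-binding protein, was the member called in WT hearts. It was higher in WT PTU+TH than in WT PTU by 1.11 (adjusted p = 0.00163 in edgeR) and lower in WT PTU than in WT untreated at a log2 change of -1.77 (adjusted p = 3.3e-05), a comparison in which the 4 class II genes were not called. In mutant hearts 7 of the 15 were lower in PTU than in untreated libraries, where 7.54% of all genes were called lower. In PTU+TH against untreated libraries 8 of the 15 were lower, where 11.3% of all genes were called lower. Without mutant untreated replicate 2 these counts were 4 and 9. The 7 include the class I genes H2-K1, which changed by -1.43 ± 0.278, and H2-D1, by -1.23 ± 0.241 (SE, adjusted p = 0.00648 for both in edgeR). Without that library H2-K1 changed by -1.24, not called, and H2-D1 by -1.17, called.

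Direct comparison of the genotypes in heart called 0 of the 35 in edgeR. In PTU hearts 2.2% of all genes were called, 1.55% higher and 0.65% lower. There 6 of the 35 and 2472 of all 14156 genes tested had an unadjusted p below 0.05 in edgeR. DESeq2 called 1 of the 35, Cd74. Leaving out WT PTU replicate 4 gave a count of 2. The log2 changes of mutant PTU against WT PTU were -0.70 for Cd74 (adjusted p = 0.0714), -0.83 for H2-Eb1 (adjusted p = 0.115), -0.79 for H2-Ab1 (adjusted p = 0.102) and -0.63 for H2-Aa (adjusted p = 0.173 in edgeR). In PTU+TH hearts 4 of the 35 and 1764 of all genes had an unadjusted p below 0.05, and DESeq2 called 0 of the 35. There 0.0141% of all genes were called in edgeR, 0.00706% higher and 0.00706% lower. The 4 class II genes lay between -0.18 and 0.21. In untreated hearts 3 of the 35 and 823 of all genes had an unadjusted p below 0.05, and 0.0% of all genes were called in edgeR. DESeq2 called 1 of the 35 in untreated hearts, Cx3cr1. Cx3cr1 differed there by 2.84 ± 0.59 (SE, adjusted p = 0.269 in edgeR) and by 0.63 without mutant untreated replicate 2. Leaving out mutant untreated replicate 1 or replicate 3 gave a count of 1 in untreated hearts.

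The difference between genotypes in the response to PTU or to TH was tested as an interaction. For PTU, 0 of the 35 were called in edgeR, where 0.579% of all genes were called, 0.48% higher and 0.0989% lower. There 6 of the 35 and 2263 of all genes had an unadjusted p below 0.05, and DESeq2 called 2 of the 35, Cd74 and Cx3cr1. The difference, mutant response minus WT response, was -1.09 ± 0.282 for Cd74 (SE, adjusted p = 0.0805 in edgeR) and -1.02 without mutant untreated replicate 2. For H2-Ab1 it was -1.19, and for H2-Eb1 -1.21, neither called, and without that library -1.01 and -1.10. The count was 3 when mutant untreated replicate 1 was left out and 1 when WT PTU replicate 4 was. For TH, 4 of the 35 and 632 of all genes had an unadjusted p below 0.05. There 0 of the 35 were called in edgeR or DESeq2, and 0.29% of all genes were called in edgeR, 0.276% lower. That difference was 0.85 ± 0.329 for H2-Aa, 0.93 ± 0.372 for H2-Eb1, 0.86 ± 0.337 for H2-Ab1 and 0.52 ± 0.273 for Cd74 (SE), with adjusted p between 0.724 and 1.0. A fall of class II with TH that is called in WT and not in mutant hearts was thus not shown to differ between them.

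In striatum 26 of the 36 genes passed the filter. The 10 that did not were H2-Aa, H2-Ab1, H2-Eb1, Ccr2, Lyve1, Folr2, Timd4, Pf4, Retnla and Pla2g2d. Of the 26, 0 were called in any of the 11 comparisons by edgeR or DESeq2, and between 0 and 4 had an unadjusted p below 0.05. Over the same comparisons 235 to 1990 of all 15670 genes had such a p. All genes called there came from WT PTU+TH against WT PTU, 0.459% of the 15670 tested, 0.383% higher and 0.0766% lower, and 0.0% were called in the other 10 comparisons. Cd74 was called in that comparison when WT PTU+TH replicate 3 was left out.

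Cx3cr1 in striatum had 69.1, 64.1, 63.4 and 67 CPM in mutant PTU+TH, 60.9, 58.9, 83.7 and 69.2 CPM in mutant PTU, and 72.3, 64.1, 65.4 and 83.1 CPM in mutant untreated mice. In WT mice it had 70.3, 82.1, 58.8 and 65.4 CPM with PTU+TH, 61.8, 64.9, 65.1 and 75.8 CPM with PTU, and 57.0, 55.8, 65.4 and 72.7 CPM untreated. All 6 groups overlapped, and the log2 changes between treatments lay between -0.11 and 0.14. C1qc averaged 25.8 ± 4.36 CPM in mutant PTU+TH, 23.4 ± 1.98 in mutant PTU and 27.9 ± 4.04 in mutant untreated striatum. In WT striatum it averaged 26.1 ± 4.89 CPM with PTU+TH, 25.2 ± 3.84 with PTU and 29.3 ± 2.89 untreated (SD, n = 4 each). Between WT PTU and WT untreated striatum it changed by -0.21, not called.

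H2-Eb1 in striatum lay between 0.0995 and 0.939 CPM over the 24 libraries, from 142 counts in all, and was not tested. Cd74, the class II gene that passed the filter, averaged 2.49 ± 1.16 CPM in WT PTU+TH and 1.5 ± 0.204 CPM in WT PTU striatum (SD). Its log2 change there was 0.73 ± 0.266 (SE, unadjusted p = 0.0114, adjusted p = 0.225 in edgeR), opposite in sign to heart. Fcer1g changed by -0.45 ± 0.134 in mutant PTU against untreated striatum (SE, adjusted p = 0.491 in edgeR). The summed microglial genes P2ry12, Tmem119 and Siglech ran from 68.8 to 105 CPM over all striatum libraries.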

How the data were processed

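Total RNA of heart and striatum was sequenced from CORALL V2 libraries made from 1 ug of RNA, per the labels' protocols. The authors deposited raw counts of reads per gene for each of 46 libraries. Per the submitters' processing notes, Bowtie2, HTSeq and GRCm39 were used. For the annotation release, the strand setting and molecular identifiers nothing is given in the sources used here. The 5 lines of reads given to no gene were left out of library sizes and tests.

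CPM was computed from the deposited counts after TMM scaling within each tissue. Genes were kept by filterByExpr with a minimum count of 10 and tested with edgeR 4.0.16 in R 4.3.3, by the quasi-likelihood F test over all 6 groups of a tissue, with Benjamini-Hochberg adjustment over all genes tested and a threshold of 0.05. The SE is the log2 change divided by the square root of F. Each tissue had 11 comparisons. Alternatives were DESeq2 1.42.0, RLE size factors, no filter, a replicate block, the share of reads on no gene as a covariate (added after the values were seen) and leaving out each library. The fits were tested on simulated data with 200 genes changed in WT PTU against WT untreated libraries. In heart, 53.2% of genes set at a log2 change of -1 were called and 55.1% at 1. At -2 and 2 the shares were 85.1% and 98.0%. In striatum they were 72.0% at -1, 66.0% at 1, 91.8% at -2 and 94.0% at 2. A gene that was not called is thus not shown to be unchanged. Exon lengths came from GENCODE M21 on GRCm38 and promoters from RefSeq. The genes shown library by library were Cx3cr1, C1qc and H2-Eb1 and the up to 12 genes of the set called with the lowest adjusted p. From other lists up to 4 called genes per comparison were named. A few genes of these lists count in the totals but are not reported here by name. Lyve1, Tmem119, Csf1, Ccl2, Ciita, Myh6, Myh7 and Ighm were shown in more detail as genes chosen after their values were seen. The gene set and all lists were chosen with earlier results of these data known, so a pattern in them is not independent support.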

Additional observations from a re-analysis of the deposited data

Results flagged for a closer look

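Within groups of 4 libraries, 7 values of the named genes stood far from the other 3 by the gap to the nearest value over the whole range, out of 66 groups examined. Chance alone flags about 5% of groups. In heart WT untreated replicate 1, C1qc was at 42.5 CPM with the others between 20.0 and 22.4 CPM, H2-Ab1 at 46.9 CPM with the others between 28.5 and 31.4 CPM, and Retnla at 5.93 CPM with the others between 2.09 and 2.67 CPM. In the same library Cx3cr1 was low, at 2.26 CPM with the others between 3.18 and 3.28 CPM. In heart WT PTU replicate 1, C1qa was at 17.6 CPM with the others between 7.55 and 8.66 CPM. In heart mutant PTU+TH replicate 2, H2-Eb1 was at 5.45 CPM with the others between 11.3 and 12.1 CPM. In striatum mutant PTU replicate 1, H2-Eb1 was at 0.63 CPM with the others between 0.426 and 0.44 CPM, a level of few counts.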

How the results depend on the processing

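The count of genes called in heart moved as follows, given without the share of all genes called in each fit. For WT PTU against untreated, 5 became 9 with a replicate block, 8 with DESeq2 and 2 to 12 when 1 library was left out. For WT PTU+TH against PTU, 7 became 4 to 5 when 1 library was left out, and for WT PTU+TH against untreated, 10 became 5 to 8. For mutant PTU against untreated, 17 became 11 with the share of reads on no gene as a covariate and 6 to 16 when 1 library was left out. For mutant PTU+TH against untreated, 18 became 9 to 17. For mutant against WT in PTU hearts, 0 became 2 with no filter (H2-Ab1 and H2-Eb1), 1 with DESeq2 and 0 to 2 when 1 library was left out. For untreated hearts, 0 became 1 with no filter and 1 with DESeq2, Cx3cr1 in both, and 0 to 1 when 1 library was left out. For the genotype difference in the PTU response, 0 became 3 with no filter (Cx3cr1, H2-Ab1 and H2-Eb1), 2 with DESeq2 and 0 to 3 when 1 library was left out. In striatum, WT PTU+TH against PTU had 0 to 1 when 1 library was left out. Single calls were also lost outside these fits. With no filter these were Csf1r in both WT comparisons with untreated hearts, Cd14 in WT PTU, Fcgr1 in mutant PTU and Trem2 in mutant PTU+TH against untreated hearts. RLE size factors lost Cd14 in WT PTU, and the replicate block lost Mpeg1 in WT PTU+TH against PTU and Trem2. The covariate lost Aif1, Lyz2, Laptm5, Fcgr1, Retnla and Pla2g2d in mutant PTU, and C1qb, Lyz2, Tyrobp, Trem2, Cd163 and Lyve1 in mutant PTU+TH, each against untreated hearts. Mrc1 between mutant PTU+TH and mutant untreated hearts was 0.23, and -0.00 without mutant untreated replicate 2 to 0.58 without replicate 1. The cause of these shifts was not tested. Of same-numbered libraries in different groups, 23 of 51 pairs in heart and 25 of 60 in striatum correlated above 0.1. Their median correlation was 0.0795 in heart and 0.0718 in striatum, against -0.016 and -0.0345 for other pairs. Whether the numbers mark pairs is not settled by this, and the replicate block is given here alone. Low counts limit Pla2g2d, Siglech, Spn and Ciita in heart and class II in striatum.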

Other observations

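C1qa took 24.4% of the summed C1q level in mutant PTU+TH, 23.6% in mutant PTU and 35.2% in mutant untreated hearts, as means over libraries, and 25.6%, 26% and 29.6% in the WT groups in the same order. In striatum the group means lay between 32.3% and 36.1%. The highest heart value was 48.4%, in mutant untreated replicate 2, where C1qa stood at 72.7, C1qb at 33.6 and C1qc at 43.8 CPM. The lowest value of that group was 24.6%. Its mean of 35.2% includes replicate 2, and the mean without that library was not computed.

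Some genes of blood and vessels were also called in heart. Of 6 red cell genes 3 were lower in WT PTU than in WT untreated hearts, where 3.02% of all genes were called lower. The 3 included Slc4a1, the anion exchanger of red cells, at a log2 change of -3.06 ± 0.754 (SE, adjusted p = 0.0151 in edgeR). Of 6 genes of blood vessel endothelium 3 were lower in mutant PTU than in mutant untreated hearts, where 7.54% of all genes were called lower. Without mutant untreated replicate 2, 0 of the 6 were called. Among the 3, Cldn5, a tight junction protein, changed by -2.5 ± 0.632 (SE, adjusted p = 0.0166 in edgeR) and by -1.19 without that library. The chemokine Ccl21a of lymphatic vessels was lower in mutant PTU than in mutant untreated hearts at a log2 change of -1.43 ± 0.287 (SE, adjusted p = 0.00735 in edgeR), and at -1.38 without that library, still called. In striatum, Gbp3 was higher in WT PTU+TH than in WT PTU by 2.00 ± 0.387 (SE, adjusted p = 0.027 in edgeR).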
